A study of Mus musculus with 12 samples.

Results

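The genes described here are *Lyn*, *Fyn*, *Syk*, *Btk*, *Lat*, *Lat2*, *Lcp2*, *Gab2* and *Plcg1*, which encode the kinases, adaptors and phospholipase nearest to the IgE receptor FcϵRI. They were chosen by gene symbol, not by any measured value, and make up 9 of the 28852 genes and 55 of the 84846 isoforms listed. RNA-seq libraries were made from bone marrow-derived mast cells (BMMCs), which are mast cells grown from the femoral marrow of BALB/c mice in medium with IL-3 and SCF. There were 4 groups of 3 libraries: untreated blank control cells, cells treated with nano-SiO2 particles (SiO2), cells given the antigen dinitrophenyl-human serum albumin (DNP-HSA), and cells given both (DNP-HSA+SiO2). The sources used here give no dose, time or mouse age for the sequenced cells and do not say whether they had been sensitized with anti-DNP IgE. Nothing states that the 3 libraries of a group were separate cultures, so p-values measure only the spread between these libraries. In each group 1 library has no number in its title and the other libraries are numbered 1 and 2, and they are called blank unnumbered, blank 1 and blank 2, and so on.

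In mast cells, antigen that cross-links receptor-bound IgE lets LYN phosphorylate the signalling motifs of the receptor's beta and gamma chains, and SYK docks on these motifs. SYK then phosphorylates the membrane adaptor LAT, around which SLP-76 (the product of *Lcp2*), BTK and PLCγ1 assemble, and PLCγ1 cleaves a membrane phosphoinositide into the messengers that release calcium and activate protein kinase C. A complementary branch runs from FYN through the scaffold GAB2 to phosphoinositide 3-kinase. These proteins are switched by phosphorylation, which RNA-seq does not measure.

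Libraries held 55737606 to 76718065 estimated counts. Of the 10 mast cell markers, *Kit*, *Fcer1a*, *Ms4a2*, *Cpa3*, *Tpsb2* and *Cma1* were at 538.7 FPKM or more in every library. *Gata2* was at 109.9 to 658.3 FPKM, *Hdc* at 5.88 to 366.4 FPKM and *Mitf* at 15.4 to 27.0 FPKM, and *Mcpt4* had a median of 0.977 FPKM. Genes induced by mast cell activation were used to check only the split of blank from treated libraries. *Egr3* was at 9.14 to 22.7 FPKM in the blank libraries and at 410.3 to 1724 FPKM in the other 9 libraries. *Egr1* was less clear, at 38.6, 12.7 and 311.8 FPKM in blank unnumbered, blank 1 and blank 2 and at 441.0 to 1177 FPKM in the treated libraries. The 4 unnumbered libraries stood apart from the 8 numbered ones. Their macrophage and neutrophil markers (9 genes) summed to 12.5 to 16.5 FPKM, against 18.8 to 120.1 FPKM in the numbered libraries, and *Lyz2* alone was at 3.04 to 3.71 against 17.9 to 87.8 FPKM. Other genes of that list went the other way, *Adgre1* at 3.94 to 5.56 against 0.542 to 2.61 FPKM and *Ly6c2* at 4.45 to 7.38 against 0.0758 to 2.42 FPKM, and *Csf1r* was at or under 2.70 FPKM everywhere. The mast cell protease *Mcpt4* (9.47 to 11.5 against 0.398 to 1.01 FPKM) and the basophil protease *Mcpt8* (20.7 to 24.3 against 0.774 to 5.32 FPKM) were higher in the unnumbered libraries, whereas the summed mast cell markers (17460.6 to 19788.4 against 21244.3 to 27904 FPKM) and the 3 megakaryocyte markers (354.6 to 588.4 against 594.6 to 777.4 FPKM) were lower. The other basophil markers overlapped, *Cd200r3* at 101.2 to 133.3 against 116.8 to 166.3 FPKM and *Prss34* at 0.426 to 1.17 against 0 to 1.58 FPKM. The list sums thus hide genes that moved in opposite directions. Values without these 4 libraries are therefore given for *Lcp2*, *Plcg1* and *Syk*. All comparisons with blank share the same 3 blank libraries.

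All 9 genes were expressed. FPKM, which corrects for isoform length and library, was summed over the isoforms of each gene to compare levels between genes. *Lat2*, encoding the adaptor NTAL that resembles LAT, was the highest at a median of 524.3 FPKM (range over 12 libraries, 354.5 to 608.7), and its range did not overlap that of any other of the 9 genes. *Lat* followed at 192.6 FPKM (165.3 to 237.5), *Lcp2* at 150.9 FPKM (99.1 to 203.3) and *Btk*, a Tec family kinase that acts on PLCγ, at 118.0 FPKM (103.9 to 143.6). The ranges of *Lat* and *Lcp2* and those of *Lcp2* and *Btk* overlapped, so these neighbours are not told apart by level across all libraries. *Plcg1* was at 70.2 FPKM (44.0 to 112.4), *Lyn* at 57.7 FPKM (43.8 to 65.8) and *Gab2* at 43.2 FPKM (35.9 to 51.4), again with overlapping neighbours. *Syk* at 19.9 FPKM (7.27 to 31.3) lay under *Gab2* in every library, and *Fyn* at 9.40 FPKM (5.30 to 11.5) was the lowest. *Fyn* was below *Syk* in all 12 libraries, although the ranges overlap. The receptor chains lay above the kinases, with medians of 2716 FPKM for *Fcer1a*, 789.6 FPKM for *Ms4a2* and 233.3 FPKM for *Fcer1g*. Counting protein-coding isoforms only lowered *Lat2* to a median of 321.9 FPKM, *Btk* to 74.6 FPKM and *Plcg1* to 50.1 FPKM and exchanged the places of *Plcg1* and *Lyn*, with the order otherwise unchanged.

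**Figure D1:**
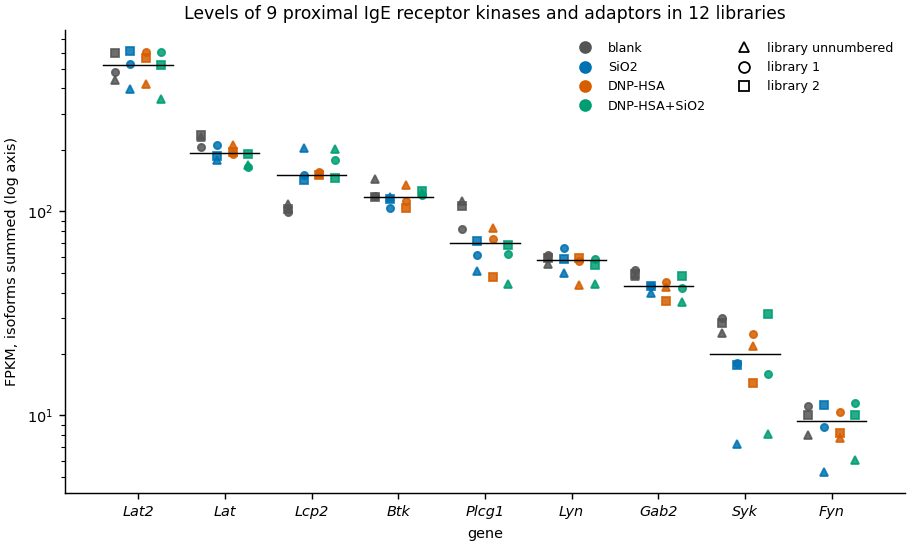
Summed FPKM of each gene (log axis) in the 12 libraries, with genes on the horizontal axis, colour for treatment group, symbol for library and a line at the median of 12 libraries. *Lat2* lies above all other genes (354.5 to 608.7 FPKM) and *Fyn* is the lowest (5.30 to 11.5 FPKM).

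To set these levels beside the families, 11 other Src, Syk and Tec family kinases were examined. Among those that passed the filter on low values were *Txk* (20.0 FPKM), *Tec* (18.5 FPKM) and *Src* (6.22 FPKM). *Yes1*, *Fgr*, *Lck* and *Zap70* had medians of 0.0113, 0.0434, 0.206 and 0.0692 FPKM, so *Lyn* was the Src family kinase with the highest median and *Syk* the only one of its family above the filter. Among counterparts of the adaptors and the phospholipase, *Plcg2* was at 25.2 FPKM, *Clnk*, a SLP-76 family adaptor, at 27.9 FPKM, *Gab3* at 5.94 FPKM, *Blnk* at 2.62 FPKM and *Gab1* at 0.0337 FPKM.

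The first question was whether nano-SiO2, antigen or both changed the RNA of the receptor-proximal genes. Between libraries, levels of a gene are given as CPM, counts relative to the TMM-scaled size of the library, and changes as log2 with the standard error (SE) of edgeR's quasi-likelihood F-test, with p adjusted by Benjamini-Hochberg over 12862 genes. None of the 9 genes passed an adjusted p of 0.05 in any treatment comparison. Of the 9 genes, the clearest shift was that of *Lcp2*, which was higher in every treated library than in every blank library. On the CPM scale *Plcg1* was lower in every treated library than in every blank library, which FPKM did not show for DNP-HSA, and none of the remaining 7 genes was separated from blank in all 3 treatments. The share of all genes separated in all 3 treatments is not given here. These separations are therefore not read as particular to the 9 genes. In bulk RNA, fewer cells of a type and less RNA per cell cannot be told apart.

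*Lyn* (chr4:3678115-3813122, GRCm38, + strand), the kinase that starts receptor phosphorylation, was at 175.0, 203.3 and 195.3 CPM in the unnumbered, 1 and 2 blank libraries. In SiO2 it was at 205.5, 238.9 and 217.3 CPM, all above blank but by little, and overlapping it in FPKM, and in DNP-HSA at 159.9, 208.7 and 252.4 CPM and in DNP-HSA+SiO2 at 210.9, 233.2 and 201.3 CPM. Its log2 changes against blank were 0.21 (SE 0.18), 0.11 (SE 0.18) and 0.17 (SE 0.18) for SiO2, DNP-HSA and DNP-HSA+SiO2. The 3 intervals together spanned -0.29 to 0.61. *Fyn* (chr10:39368855-39565381, + strand), the kinase of the GAB2 branch, ranged from 23.8 to 37.4 CPM in blank, 21.3 to 34.1 CPM in SiO2, 29.8 to 36.6 CPM in DNP-HSA and 30.2 to 43.2 CPM in DNP-HSA+SiO2. All 4 groups overlapped, and its log2 changes of -0.14, 0.08 and 0.22 had an SE of 0.23 each.

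*Syk* (chr13:52583173-52648792, + strand), the kinase that binds the phosphorylated receptor, was the most variable of the 9 genes. It was at 99.2, 141.6 and 124.1 CPM in the unnumbered, 1 and 2 blank libraries and at 46.5, 91.3 and 85.1 CPM in the SiO2 libraries. The SiO2 libraries were thus all below blank. In DNP-HSA it was at 102.6, 132.5 and 89.0 CPM and in DNP-HSA+SiO2 at 52.9, 96.0 and 154.2 CPM, and both groups overlapped blank on this scale, whereas in FPKM the DNP-HSA libraries lay below blank. The log2 change in SiO2 was -0.71 (SE 0.37, 95% interval -1.52 to 0.10, adjusted p = 0.686), and it was -0.59 without the 4 unnumbered libraries. In DNP-HSA and DNP-HSA+SiO2 the changes were -0.17 and -0.27 (SE 0.37 each), and -0.25 and -0.08 without the unnumbered libraries. *Btk* (chrX:134542336-134583570, - strand) was at 281.7, 239.3 and 235.0 CPM in the blank libraries and at 359.0, 293.1 and 303.0 CPM in DNP-HSA+SiO2, groups that did not overlap on this scale but did so in FPKM. Its log2 change was 0.34 (SE 0.17, adjusted p = 0.498) there, 0.13 (SE 0.17) in SiO2 and 0.18 (SE 0.17) in DNP-HSA. With scaling to the total count all 3 changes of *Btk* turned negative (-0.15, -0.08 and -0.02).

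*Lcp2* (chr11:34046920-34092295, + strand) encodes SLP-76, the adaptor that joins LAT to PLCγ1, VAV and BTK. It was at 343.1, 349.0 and 345.2 CPM in the unnumbered, 1 and 2 blank libraries, which is 346 ± 2.95 CPM (SD, n = 3). In SiO2 it was at 906.1, 583.2 and 529.7 CPM, in DNP-HSA at 528.9, 576.3 and 690.8 CPM, and in DNP-HSA+SiO2 at 950.9, 691.3 and 548.9 CPM. Every treated library exceeded every blank library, and FPKM gave the same separation, with 99.1 to 109.1 FPKM in blank and 143.1 to 203.3 FPKM in the other libraries. The fold changes were 1.95 for SiO2 (log2 0.96, SE 0.26, adjusted p = 0.271), 1.73 for DNP-HSA (log2 0.79, SE 0.26, adjusted p = 0.390) and 2.11 for DNP-HSA+SiO2 (log2 1.08, SE 0.26, adjusted p = 0.107) in edgeR. DESeq2 passed *Lcp2* for SiO2 (adjusted p = 0.0201) and DNP-HSA+SiO2 (adjusted p = 0.00279) but not for DNP-HSA (adjusted p = 0.0910). Scaling to the total count left the changes positive at 0.67, 0.53 and 0.71. The unnumbered libraries held the highest values in SiO2 and in DNP-HSA+SiO2: without the 4 unnumbered libraries the log2 changes were 0.68, 0.88 and 0.85 (adjusted p = 0.874, 0.185 and 0.277 in edgeR). The exons of *Lcp2* share 282 bases with *4930469K13Rik* on the opposite strand, and the sources used here do not state whether the counting used strand.

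**Figure D2:**
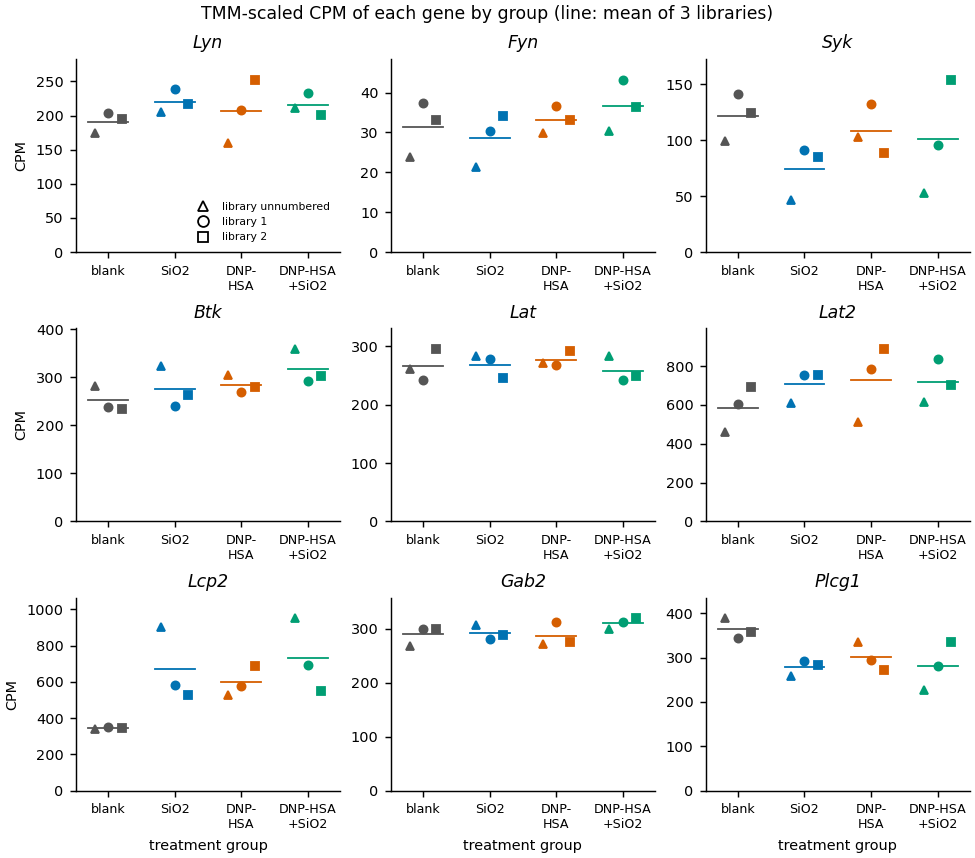
CPM of each gene (vertical axes from 0, TMM-scaled) by treatment group, with triangle, circle and square for the unnumbered, 1 and 2 libraries and a line at the mean of 3. The blank libraries of *Lcp2* lie at 343.1 to 349.0 CPM and its treated libraries at 528.9 to 950.9 CPM, whereas *Gab2* and *Lat* are nearly level.

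On the CPM scale the adaptor *Lat* and the scaffold *Gab2* were the most even of the 9 genes. *Lat* (chr7:126363824-126369570, - strand) ranged from 241.8 to 295.4 CPM over all 12 libraries, a fold of 1.22 between the extremes, and its log2 changes against blank were 0.01, 0.06 and -0.04 (SE 0.16 each). *Gab2* (chr7:97081586-97308946, + strand), which recruits phosphoinositide 3-kinase, ranged from 267.6 to 318.8 CPM, a fold of 1.19, with changes of 0.02, -0.02 and 0.10 (SE 0.15 each). In FPKM *Btk* had the smallest range (1.38-fold, against 1.43-fold for *Gab2* and 1.44-fold for *Lat*), and *Gab2* lay below blank in SiO2 and DNP-HSA. The SD of log2(CPM + 1) over the libraries was 0.09 for *Gab2* and 0.10 for *Lat*, against a median of 0.34 over the 12862 genes. *Lat2* (chr5:134600022-134615025, - strand) was less even, at 462.5 to 690.6 CPM in blank, 610.0 to 754.0 CPM in SiO2, 511.4 to 887.3 CPM in DNP-HSA and 615.0 to 837.6 CPM in DNP-HSA+SiO2. The groups overlapped, and its changes were 0.27, 0.31 and 0.29 (SE 0.25 each). The exons of *Lat2* share 952 of 2621 bases with *Rfc2* on the opposite strand.

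*Plcg1* (chr2:160731300-160775760, + strand), the phospholipase at the end of this complex, was at 388.2, 344.7 and 358.0 CPM in the unnumbered, 1 and 2 blank libraries. It was at 259.1, 291.7 and 282.3 CPM in SiO2, at 335.7, 293.5 and 271.2 CPM in DNP-HSA and at 227.2, 279.9 and 334.2 CPM in DNP-HSA+SiO2. On this scale all 9 treated libraries were below the lowest blank library. In FPKM the separation held for SiO2 and DNP-HSA+SiO2 but not for DNP-HSA, where the unnumbered library (83.3 FPKM) lay above blank 1 (82.4 FPKM). The log2 changes were -0.39 (SE 0.18, adjusted p = 0.630), -0.28 (SE 0.18, adjusted p = 0.958) and -0.37 (SE 0.18, adjusted p = 0.455), and each 95% interval included 0. Scaling to the total count gave -0.65, -0.52 and -0.70, and leaving out the 4 unnumbered libraries -0.29, -0.31 and -0.18. Its exons share 379 bases with *Zhx3* and 248 with *Gm27206*, both on the opposite strand.

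**Figure D3:**
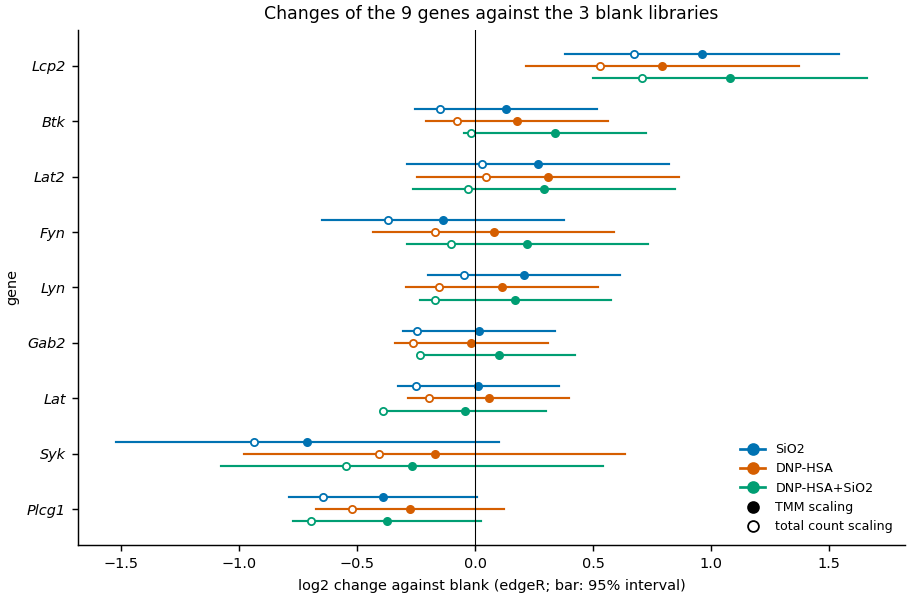
Log2 change of each gene against blank (horizontal axis) for the 3 treatments, with the 95% interval as a bar, filled points for TMM scaling and open points for total count scaling. The *Lcp2* changes of 0.79 to 1.08 are the only ones whose 3 intervals lie above 0, and most open points lie to the left of the filled ones.

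Counted over the 9 genes, 0 passed the adjusted threshold for SiO2 against blank, where 0.0622% of all genes passed, 0 for DNP-HSA, where 0.218% did, and 0 for DNP-HSA+SiO2, where 0.575% did. At an unadjusted p under 0.05 there was 1 gene, *Lcp2*, in each of these comparisons, against 8.03%, 7.38% and 12% of all genes. DESeq2 passed 1, 0 and 1 of the 9, against 2.16%, 2.4% and 4.6% of all genes, and limma on log2(FPKM + 1) passed 0 in each, against 0.233%, 0.358% and 0.7%. On the CPM scale the libraries did not overlap for 4 genes in SiO2 against blank (*Lcp2* and *Lyn* higher, *Plcg1* and *Syk* lower), where 14.5% of all genes did not overlap. There were 2 such genes in DNP-HSA (*Lcp2* higher, *Plcg1* lower; 14.4% of all genes) and 3 in DNP-HSA+SiO2 (*Lcp2* and *Btk* higher, *Plcg1* lower; 17.5% of all genes). In FPKM, which is not TMM-scaled, 5 genes did not overlap in SiO2 (*Lcp2* higher, *Btk*, *Gab2*, *Plcg1* and *Syk* lower; 21.1% of all genes), 3 in DNP-HSA (*Lcp2* higher, *Gab2* and *Syk* lower; 21.8%) and 3 in DNP-HSA+SiO2 (*Lcp2* higher, *Lat* and *Plcg1* lower; 28.2%). Of the 9 genes, *Lcp2* was thus separated from blank in all 3 treatments on both scales. The share of all genes separated in all 3 treatments is not given here. Because the 3 comparisons share their blank libraries, it cannot be read from the single shares above. The median log2 change of the 9 genes was 0.02, 0.08 and 0.17 for the 3 treatments, beside -0.01, 0.01 and -0.01 over all genes tested. The direction of small changes depends on the scaling: 6 of the 9 changes were positive in each comparison with TMM, and 2, 2 and 1 with total count scaling, which moved the median of all genes by -0.26, -0.25 and -0.34.

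The design also asks whether particles added to the effect of antigen. Compared with DNP-HSA alone, DNP-HSA+SiO2 passed for 0 of the 9 genes in edgeR (0 at an unadjusted p under 0.05, 0 in DESeq2 and 0 in limma), and the libraries of all 9 overlapped in CPM and in FPKM. Over all genes 0% passed in edgeR, 0.645% were at an unadjusted p under 0.05, 0.0311% passed in DESeq2, 0% passed in limma, and 1.9% did not overlap in CPM and 2.04% in FPKM. The log2 changes ran from -0.10 (*Lat*) to 0.29 (*Lcp2*, SE 0.26, 95% interval -0.29 to 0.86). For *Syk* the interval of -0.90 to 0.71 leaves wide room for a change either way. Compared with SiO2 alone, 0 genes passed by either edgeR, DESeq2 or limma, 0 were at an unadjusted p under 0.05, and all 9 overlapped in CPM. In FPKM *Btk* did not, at 120.2 to 126.3 against 104.2 to 116.9 FPKM. Over all genes the shares were 0% in edgeR, 0.0466% in DESeq2, 0% in limma, 1.08% at that unadjusted p, and 2.94% without overlap in CPM and 3.31% in FPKM. The values ran from -0.06 (*Lat*) to 0.44 (*Syk*, SE 0.37). The interaction of SiO2 and DNP-HSA, which measures how far the combined change departs from the sum of the single changes, passed for 0 of the 9 genes in edgeR, DESeq2 and limma, and 0 were at an unadjusted p under 0.05. Over all genes the shares were 0.0233%, 0.28%, 0.0311% and 2.08%. *Lcp2* had the lowest interaction, log2 -0.67 (SE 0.37, 95% interval -1.49 to 0.14) and *Syk* the highest at 0.61 (SE 0.52).

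The rest of the pathway was read from 6 lists holding 78 genes, of which 69 were tested. In edgeR 0 of the 69 passed in any treatment comparison. At an unadjusted p under 0.05 there were 6 genes for SiO2, 5 for DNP-HSA and 8 for DNP-HSA+SiO2, each against blank, which is 8.70%, 7.25% and 11.6% of the 69, near the 8.03%, 7.38% and 12% of all genes. All of them were higher than in blank, where 5.78%, 4.52% and 6.95% of all genes were at that p and higher. DESeq2 passed 3, 1 and 3 genes (4.35%, 1.45% and 4.35%, against 2.16%, 2.4% and 4.6% of all genes) and limma passed 0. Among the 3 receptor chains, *Fcer1g*, the signalling gamma chain, had changes of 0.37, 0.33 and 0.32 (SE 0.25 each), *Fcer1a* 0.22, 0.17 and 0.15 (SE 0.21 each) and *Ms4a2*, the beta chain, -0.16, -0.13 and -0.23 (SE 0.27 each), with libraries that overlapped blank on the CPM scale. In FPKM the DNP-HSA+SiO2 libraries of *Fcer1a* (2311 to 2713 FPKM) lay below those of blank (2720 to 3253 FPKM), and with total count scaling its changes were -0.04, -0.10 and -0.19, so its direction depends on the scale. With that scaling those of *Fcer1g* were 0.12, 0.06 and -0.0019. None of the chains was at an unadjusted p under 0.05. Of the 5 tested kinases in the members' families, *Txk* had changes of 0.68, 0.55 and 0.70 (SE 0.26 each), and *Tec* 0.99, 0.45 and 0.94 (SE 0.41 each). In FPKM *Txk* overlapped blank in each treatment. For *Tec* the SiO2 libraries (18.8 to 37.7 FPKM) lay above blank (13.3 to 18.2 FPKM), while DNP-HSA+SiO2 2 (12.9 FPKM) lay below it.

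Of the 4 tested counterparts of the adaptors and PLCγ1, *Plcg2* had changes of 0.06, 0.24 and 0.28 (SE 0.15 each) and *Gab3* of 0.43, 0.28 and 0.42 (SE 0.26 each). Of 13 other adaptors and exchange factors, *Nck2*, an SH2 and SH3 domain adaptor, had changes of 0.94, 0.76 and 0.76 (SE 0.33 each). In FPKM its SiO2 and DNP-HSA+SiO2 libraries lay above blank (22.8 to 24.4 FPKM), whereas DNP-HSA unnumbered (22.9 FPKM) lay within it. None of the 29 downstream effectors was at an unadjusted p under 0.05 for SiO2 or DNP-HSA, and 1 was for DNP-HSA+SiO2, *Sphk1*, a sphingosine kinase (2.17, SE 0.96). *Sphk1* was at 5.91, 2.25 and 0.871 FPKM in DNP-HSA+SiO2 unnumbered, 1 and 2, overlapping blank at 0.382 to 1.43 FPKM. The median change of the 29 effectors was -0.07, 0.03 and 0.00. Of the 15 inhibitory regulators, *Sla*, encoding the Src-like adaptor that down-regulates antigen receptors, had the greatest changes at 3.10 (SE 0.74, adjusted p = 0.167), 2.89 (SE 0.73, adjusted p = 0.185) and 3.27 (SE 0.74, adjusted p = 0.0840), and its 26.1 to 30.6 FPKM in blank lay below all treated libraries (62.6 to 343.1 FPKM). DESeq2 passed *Sla* in all 3 comparisons. *Ptpn22*, a phosphatase of Src and Syk family kinases, had changes of 2.01 (SE 0.62), 1.43 (SE 0.61) and 1.91 (SE 0.62), and DESeq2 passed it for SiO2 and DNP-HSA+SiO2. In FPKM the libraries of these groups (9.39 to 36.0) lay above blank (3.60 to 8.07), whereas DNP-HSA unnumbered (5.90) lay within it. The greatest *Ptpn22* values were those of SiO2 unnumbered (32.2 FPKM) and DNP-HSA+SiO2 unnumbered (36.0 FPKM).

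The libraries without a number differed from the numbered ones in some of the 9 genes. With treatment group in the model, 3 of the 9 genes were called and all 3 were lower in the unnumbered libraries, where 25.1% of all genes were called (12.9% lower). *Fyn* was lowest in the unnumbered library of each of the 4 groups, at 21.3 to 30.2 CPM against 30.4 to 43.2 CPM in the numbered libraries (log2 -0.45, SE 0.11, adjusted p = 0.0126 in edgeR). These ranges did not overlap. *Lat2* was also lowest in all 4 groups (462.5 to 615.0 against 606.2 to 887.3 CPM, log2 -0.45, SE 0.12, adjusted p = 0.0206 in edgeR). *Syk* was lowest in 3 of 4 groups (46.5 to 102.6 against 85.1 to 154.2 CPM, log2 -0.65, SE 0.21, adjusted p = 0.0440 in edgeR). *Btk* was highest in the unnumbered library of all 4 groups, at 281.7 to 359.0 CPM against 235.0 to 303.0 CPM (log2 0.26, SE 0.09, adjusted p = 0.0549 in edgeR, 0.00376 in DESeq2, where 32.5% of all genes were called). The shares of all genes lowest or highest in the unnumbered library of every group, or without overlap, are not given here. These orders are therefore not read as particular to these genes. In limma on log2(FPKM + 1), 2 of the 9 genes (*Fyn* and *Lat2*) and 20.7% of all genes were called. Without blank unnumbered 0 of the 9 genes were called (*Fyn* at an adjusted p of 0.0570), and *Syk* passed in 4 of the 12 fits that left out 1 library.

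**Figure D4:**
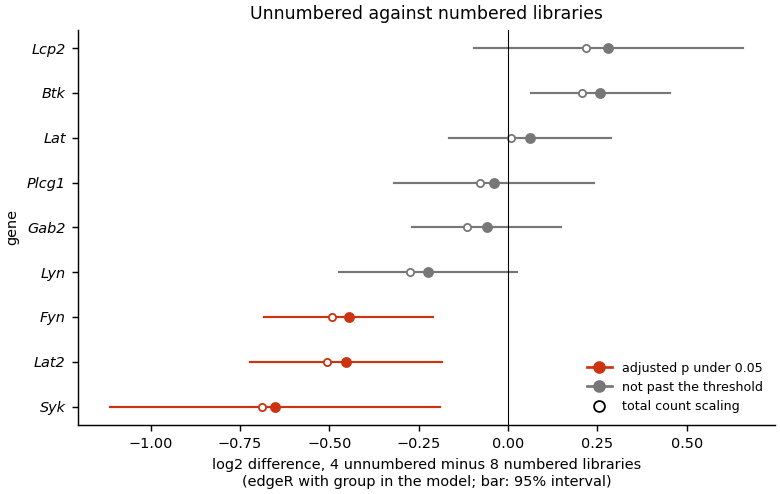
Log2 difference of each gene between the 4 unnumbered and 8 numbered libraries (horizontal axis), with the 95% interval as a bar, open points for total count scaling and red for an adjusted p under 0.05. *Syk* (-0.65), *Lat2* (-0.45) and *Fyn* (-0.45) are the genes past the threshold.

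Along the same split, 19 of the 69 list genes were called, 2 higher and 17 lower, where 12.1% of all genes were called higher and 12.9% lower. *Src* differed by -0.96 (SE 0.13), *Blnk* by -0.91 (SE 0.20), *Grap2*, the adaptor that carries SLP-76 to LAT, by -1.58 (SE 0.46), and *Sh3bp2* by -0.45 (SE 0.14). Of the effectors, 7 were lower and 2 higher, with *Pik3cb* at 1.46 (SE 0.14) and *Pik3r2* at -1.59 (SE 0.24). Of the inhibitory regulators, *Cd300a*, *Dok2*, *Pag1*, *Dok1* and *Csk*, the kinase that inactivates Src family kinases, were lower by -1.08 to -0.56. The receptor chains were not called in edgeR with TMM, with *Fcer1g* at -0.39 (SE 0.14, adjusted p = 0.0735). DESeq2, limma on log2(FPKM + 1) and edgeR with total count scaling each called *Fcer1g* and no other chain. Along this split 1 of the 8 tested macrophage and neutrophil markers was called higher and 2 lower, 2 of the 10 mast cell markers higher and 2 lower, 1 of the 3 basophil markers higher and 0 lower, and 0 of the 3 megakaryocyte markers higher and 2 lower. The part of such cells in the differences above was not tested.

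Isoforms were examined because *Syk* and *Fyn* each make proteins that differ by an alternative coding segment. Of the 55 isoforms of the 9 genes, 43 were tested among 30820 isoforms in the same model, and 0 passed in any of the 6 treatment comparisons, where 0.0357% of all isoforms did for SiO2, 0.0422% for DNP-HSA and 0.0389% for DNP-HSA+SiO2 against blank. In DNP-HSA+SiO2 against DNP-HSA, DNP-HSA+SiO2 against SiO2 and the interaction, 0.00649%, 0% and 0.00324% of all isoforms passed. At an unadjusted p under 0.05 there were 3, 4 and 8 isoforms of the 9 genes in the comparisons with blank, against 5.78%, 5.94% and 8.55% of all isoforms, and 1, 1 and 0 in the other comparisons, against 2%, 2.26% and 2.92%. The shares below are parts of a gene's summed FPKM, as estimated by the authors' assembly of short reads. The segments are printed 5′ to 3′ in the sense of the gene from GRCm38, with the alternative segment in capitals and 15 neighbouring coding bases in lower case on each side, to show what separates the forms.
SYK linker insert (chr13:52624708-52624776, + strand, 69 bases, 23 codons, in *Syk-203* and *Syk-201* and not in *Syk-202*): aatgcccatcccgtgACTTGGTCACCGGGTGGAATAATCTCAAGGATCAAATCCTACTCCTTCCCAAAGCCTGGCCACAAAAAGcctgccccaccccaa
FYN T exon (chr10:39529919-39530074, + strand, 156 bases, 52 codons, in *Fyn-201*): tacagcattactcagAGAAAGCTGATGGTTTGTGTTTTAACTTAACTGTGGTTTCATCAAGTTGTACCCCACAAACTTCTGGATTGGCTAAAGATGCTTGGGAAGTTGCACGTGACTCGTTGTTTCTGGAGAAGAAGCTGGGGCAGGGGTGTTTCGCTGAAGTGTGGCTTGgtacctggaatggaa
FYN B exon (chr10:39529437-39529601, + strand, 165 bases, 55 codons, in *Fyn-202*): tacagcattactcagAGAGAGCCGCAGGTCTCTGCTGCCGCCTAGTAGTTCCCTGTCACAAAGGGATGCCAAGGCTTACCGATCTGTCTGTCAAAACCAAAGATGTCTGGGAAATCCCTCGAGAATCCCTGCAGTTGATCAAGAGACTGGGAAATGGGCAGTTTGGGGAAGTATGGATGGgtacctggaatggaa

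The insert of *Syk* lies in the linker between its SH2 domains and the kinase domain, and the short form is known as SykB. The long form was predominant, with a median of 90.8% (85.5% to 100%). It was at 94.99%, 85.5% and 88.9% in the unnumbered, 1 and 2 blank libraries and at 99.4%, 86.8% and 86.0% in SiO2. In every group the unnumbered library had the highest share of the long form, reaching 100% in DNP-HSA+SiO2.

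The mutually exclusive exons of *Fyn* encode the end of the SH2-kinase linker and the start of the kinase domain, and the T form is the one known from blood cells whereas the B form is known from brain. Aligned to each other, the exons matched at 95 of 171 columns. In blank the T exon took 98.98%, 99.5% and 99.2% of the FPKM of forms with either exon, in the unnumbered, 1 and 2 libraries. In SiO2 its share was 69.8%, 92.0% and 30.5%, in DNP-HSA 99.1%, 90.5% and 73.9%, and in DNP-HSA+SiO2 97.6%, 39.8% and 99.5%. The 3 SiO2 libraries were all below blank, while the groups with antigen each held a library at the blank level. How often isoform shares of other genes separate in this way is not given here. The separation is therefore not read as particular to *Fyn*. *Fyn-202*, the B form, was at 0.0532 to 0.0727 FPKM in blank, and its greatest values were 5.28 FPKM in DNP-HSA+SiO2 1 and 3.99 FPKM in SiO2 2. Its log2 changes were 5.01 (SE 1.80, adjusted p = 0.699), 4.07 (SE 1.72, adjusted p = 0.814) and 4.98 (SE 1.80, adjusted p = 0.458) in edgeR. The 3 libraries of each treated group thus differed widely among themselves. *Fyn-206*, which has neither exon, held 14.4% of *Fyn* on average (0% to 46.7%), and the highest share was again in SiO2 2.

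**Figure D5:**
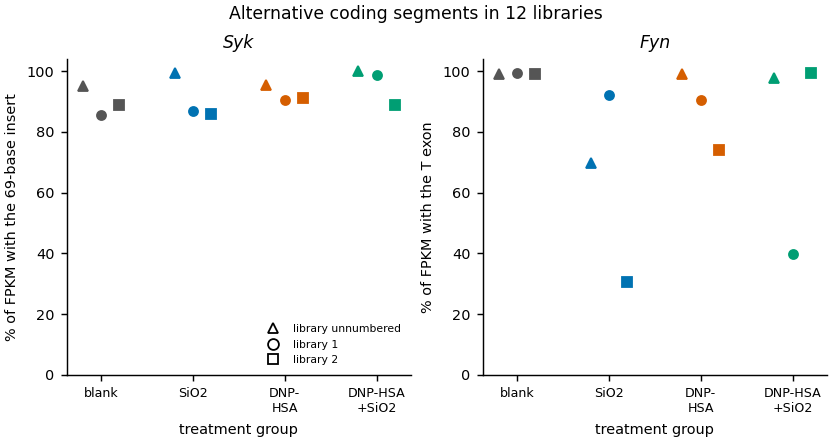
Share of FPKM (vertical axes, percent) with the *Syk* insert and the *Fyn* T exon, among forms with and without each, by treatment group and library. The *Fyn* T exon is at 98.98% to 99.5% in blank and at 30.5% to 99.5% in the other libraries, whereas the *Syk* insert stays between 85.5% and 100%.

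Of 6 further genes, most had 1 leading form. *Gab2-201* held 94.8% of *Gab2*, *Lcp2-201* 84.6% of *Lcp2* with *Lcp2-202* at 11.8%, and *Lat-201* 82.9% of *Lat*. The leading form *Lcp2-201* had log2 changes of 0.93 (SE 0.30), 0.76 (SE 0.30) and 0.98 (SE 0.30), with an adjusted p of 0.612, 0.778 and 0.346 in edgeR. *Plcg1-203* held 64.9% of *Plcg1* and *Plcg1-206* 12.6%. *Plcg1-208*, a form annotated for nonsense-mediated decay, was at 47.4% in blank 2 and 11.3% in DNP-HSA 1 and at or under 1.14% in the other 10 libraries, so its log2 changes of -6.01 (SE 2.12) in SiO2 and -5.50 (SE 2.07) in DNP-HSA+SiO2 rest on blank 2. *Btk-201* held 62.2% of *Btk*. *Lat2* was divided among *Lat2-202* (34.4%), *Lat2-207* (21.5%), *Lat2-205* (15.3%) and *Lat2-210* (12.8%), of which the second and last are retained-intron transcripts.

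Transcripts annotated as retained introns took a sizeable part of some genes, among them *Btk-204* (22.5% of *Btk*) and *Syk-204* (15.7% of *Syk*). Over the 9 genes together they made up 11.2% to 28.6% of the FPKM, against 4.40% to 9.45% over all other genes. This pooled share was carried mainly by *Lat2*, the highest gene. *Lat2-207* and *Lat2-210* had medians of 99.2 and 58.9 FPKM, against 29.1 FPKM for *Btk-204* and 2.70 FPKM for *Syk-204*. *Lyn*, *Fyn*, *Gab2* and *Lcp2* had no isoform of this type. The libraries fell into an order that was not that of the treatments. Blank 1, SiO2 1 and DNP-HSA 2 were the lowest at 11.2% to 11.4%, DNP-HSA+SiO2 2 followed at 15.4%, the 4 unnumbered libraries were at 17.5% to 22.7%, and DNP-HSA+SiO2 1, SiO2 2, DNP-HSA 1 and blank 2 were the highest at 24.1% to 28.6%. Each treatment group thus had libraries at both ends. The share over all other genes had a similar order. It was 4.40% to 5.70% in the 4 lowest libraries, 6.96% to 7.98% in the unnumbered ones and 8.02% to 9.45% in the 4 highest. This order is therefore not particular to the 9 genes. The 4 lowest libraries were those with *Lyz2*, a gene of macrophages and neutrophils, at 60.1 to 87.8 FPKM, whereas the 4 highest had 17.9 to 34.0 FPKM and the unnumbered ones 3.04 to 3.71 FPKM. The basophil protease *Mcpt8* was at 2.92 to 5.32 FPKM in the 4 lowest and 0.774 to 1.11 FPKM in the 4 highest libraries. In the unnumbered ones it was at 20.7 to 24.3 FPKM. The part of any cell type in the intron shares was not tested.

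Across the 12 libraries, which share treatments and library type, the gene whose log2 CPM most resembled each of the 9 was found among the other 12861 genes, as a description. For *Lcp2* it was *Golph3* (Pearson r = 0.99), for *Lat2* *Gpr65* (0.97), for *Plcg1* *Letmd1* (0.97), for *Lyn* *Prkag1* (0.97), for *Syk* *Kdm4b* (0.97) and for *Btk* *Atg4c* (0.94). For *Fyn* it was *Pdzd4* (0.90), for *Gab2* *Amd1* (0.89) and for *Lat* *Rfc2* (0.84). The genes least variable in CPM, *Lat* and *Gab2*, thus had the lowest values. Among the 9 genes, *Lcp2* and *Plcg1* were opposed (r = -0.92) and *Lyn* and *Lat2* varied together (r = 0.87).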

How the data were processed

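mRNA from 12 BMMC libraries (poly(A) selection, a dUTP library kit) was sequenced in paired reads of 150 bases. The authors deposited 1 table of isoforms with FPKM and estimated counts per library, and the 24 value columns were mapped by sample title. Tools listed by the submitters in their processing notes, with no roles, were StringTie 1.3.4d, edgeR, HISAT2 2.0.4, cutadapt 1.9 and DESeq2. Their genome build and strand setting are not given in the sources used here. All 55 isoforms examined had the coordinates of GENCODE M21 (GRCm38), from which the sequences were read. In the deposited values an estimated count is, to within 1 count, proportional within a library to the product of FPKM and isoform length for 99.7% to 99.8% of isoforms, so depth is known only through these counts.

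FPKM and estimated counts were summed per gene. Genes (12862) and isoforms (30820) reaching 1 FPKM in 3 or more of the 12 libraries were tested with edgeR 4.0.16 (quasi-likelihood F-test, TMM, robust, 1 model of 4 groups), whole-number counts being used as deposited, with Benjamini-Hochberg adjustment and a threshold of 0.05. The SE is the log2 change divided by the root of F. The test was checked on simulated counts. The alternatives were DESeq2 1.42.0, limma 3.58.1 on log2(FPKM + 1) and log2(FPKM + 0.1), total count scaling, no filter, counts divided by 4, a replicate block, leaving out libraries, and, added after seeing the data, protein-coding isoforms only. TMM factors were 0.808 to 1.22. Equal titles (unnumbered, 1 and 2) paired blank with SiO2 (correlations of deviations from group means 0.563, 0.587 and 0.570) and DNP-HSA with DNP-HSA+SiO2 (0.450, 0.557 and 0.296). The unnumbered libraries also correlated between blank and DNP-HSA (0.654) and between blank and DNP-HSA+SiO2 (0.560). For SiO2 they did so with DNP-HSA (0.475) and with DNP-HSA+SiO2 (0.712). In these other comparisons libraries 1 and 2 did not pair with their own number (-0.22 to 0.11). Named besides the 9 genes were, of each list, the genes called or else up to 3 with the smallest p, family counterparts by level and the most similar gene. Some items withheld from the text are not reported here. The genes, lists and tests were chosen with earlier results of these data known.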

Additional observations from a re-analysis of the deposited data

How the results depend on the processing

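The log2 changes of the 9 genes were recomputed in 1062 combinations of gene, comparison and alternative. In 114 the sign changed, all for changes that were not called, 19 of them under each limma pseudocount and 18 under total count scaling. With DESeq2 1 gene (*Lcp2*) passed for SiO2 against blank (log2 0.97) and 1 for DNP-HSA+SiO2 against blank (log2 1.09), and none passed for these comparisons under the other alternatives. For the difference between unnumbered and numbered libraries, 3 genes were called, 2 to 4 under the alternatives and 0 to 3 when 1 library was left out, the 0 being without blank unnumbered. In the treatment comparisons leaving out 1 library gave 0 calls throughout. The isoform counts stayed at 0 under all alternatives run.

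With a replicate block within the paired groups 0 of the 9 genes passed for SiO2 against blank and for DNP-HSA+SiO2 against DNP-HSA, and *Lcp2* was at 0.92 for SiO2 against blank (adjusted p = 0.332 in edgeR). A block over all 12 libraries also gave 0 of the 9 genes in each treatment comparison. Between blank and the groups with antigen the unnumbered libraries correlated (0.654 and 0.560), but the numbers 1 and 2 did not pair the libraries. The numbered ones correlated at -0.11 to -0.04 with their own number and at 0.43 to 0.52 with the other one. This is a hint from the data and was not used. The block changed no call in the treatment comparisons. Between groups without and with antigen, however, it joined libraries 1 and 2 that did not pair by number. What a block of matching libraries would give there was not tested.

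The lowest count of any of the 9 genes in a library was 1231 (*Fyn*). With 3 libraries a group, the 95% interval for SiO2 against blank ran from -1.52 to 0.10 for *Syk* and from -0.31 to 0.34 for *Gab2*.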
